A study of Mus musculus with 194 samples.

Results

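The olfactory and vomeronasal receptor genes were taken as the GRCm38 bodies of all protein-coding genes of chromosomes 1 to 19 whose symbols begin with Olfr, Vmn1r or Vmn2r, without flanks. They number 1458 of the 20665 protein-coding genes there: 1104 Olfr, 231 Vmn1r and 123 Vmn2r genes. Their bodies cover 5.71 Mb once overlaps are counted once. Across 47 deposited tables of transposon insertions from mouse brain and a mouse cell line, these bodies held 3091 insertions. Their measured density was under the genome mean in every table, and in 46 of the 47 it was under 0.1 of it. Of these 46, 3 shallow tables with a single receptor insertion among them cannot bound the density that low. The N2a line had the highest value of the series, 0.148 of the genome mean.

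Olfactory receptors are G-protein-coupled receptors of the main olfactory epithelium, where a mature sensory neuron is thought to express a single receptor allele. Vmn1r and Vmn2r genes encode the receptors of the vomeronasal organ, which detects pheromones and related cues. The genes lie in large tandem clusters with many near-identical copies and pseudogenes, and in most tissues they are held silent in heterochromatin. An olfactory receptor signals through the G protein subunit encoded by Gnal, adenylate cyclase Adcy3 and the cyclic nucleotide channel of Cnga2. Vmn1r neurons use Gnai2, Vmn2r neurons use Gnao1, and both use the channel Trpc2.

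Calling cards is a method in which a transposase leaves a marker transposon at TTAA sequences of the genome, so that each insertion records where the enzyme has been. The self-reporting transposon (SRT) is read from RNA that runs out of the transposon into the flanking genome. The BrokenHeart transposon is read from DNA by inverse PCR. The labels do not name the transposase or its viral vector beyond an adeno-associated virus (AAV) injected on postnatal day 0 to 1.

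The groups came from 46 animals, with 1 table an animal. C57bl6J animals (2) received viruses that do not need Cre. The Cre-line groups were Syn1Cre (6), in which a neuronal promoter drives Cre, and GFAPCre (6), in which an astrocyte promoter drives it, each with a group labelled Syn1CreNeg (6) or GFAPCreNeg (6). Frontflip_GFAPCre (3) and Frontflip_GFAPCreNeg (3) carry a further label; the sources used here spell out neither it nor "Neg". Syn1Cre_SP1_P10 (3) and Syn1Cre_SP1_P28 (4) carry the label SP1, the name of a transcription factor that binds GC-rich promoters, and the ages postnatal day 10 and 28. No other group has an age in the labels. Rbp4Cre_TRAP (4) came from whole forebrain and is labelled Rbp4 TRAP, and BrokenHeart (3) from cortical DNA. All other animals gave cortex RNA, cut into 10 parts that were indexed apart, so that insertions at a single TTAA in different parts can be counted apart. N2a, a mouse neuroblastoma line, has 1 table made from 3 experiments. A Cre promoter selects cells by its activity since Cre appeared, and in bulk tissue fewer cells of a type and fewer insertions per cell cannot be told apart. The labels list 194 samples, and 77 of them are sequencing pools that hold more than 1 group.

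Depth, counted as insertions in a table, ran from 2341 in a Frontflip_GFAPCreNeg animal to 2186743 in a C57bl6J animal. C57bl6J (1545951 and 2186743), Syn1Cre (443158 to 1364948) and GFAPCre (600443 to 1505413) were the deep groups, with N2a at 806653. Syn1CreNeg held 97519 to 556145, GFAPCreNeg 208057 to 597230, Frontflip_GFAPCre 160631 to 205559, Syn1Cre_SP1_P10 86842 to 95331 and Syn1Cre_SP1_P28 108965 to 577609. BrokenHeart (42511 to 98197) and Rbp4Cre_TRAP (24408 to 57014) were shallow. All densities below are relative to the genome mean: insertions per Mb of the bodies divided by insertions per Mb of chromosomes 1 to 19 in the same table. The genome mean was close to 397 insertions per Mb per 1000000 insertions of a table.

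Whether the DNA around an annotated receptor start could take an insertion at all was read from the sequence. Many Olfr annotations are mostly coding sequence (868 of 1104 Olfr lengths are multiples of 3). Where an annotation holds coding sequence only, its start is the start codon and the window need not hold the promoter. How many windows this concerns was not counted. RefSeq windows of the build GRCm38.p6, from 250 bases before to 50 bases after a gene start, were at hand for 1260 of the 1458 genes. The motif TTAA reads the same on both strands. It occurred in 81.7% of the 1265 receptor windows, with a mean of 2.16 per window, and in 45.5% of 18820 windows of other genes, with a mean of 0.752. By family, 86.1% of Olfr, 64.1% of Vmn1r and 77.8% of Vmn2r windows held one. The windows below, each 300 bases printed 5′ to 3′ on the gene's strand with TTAA in capitals, show receptor starts with and without insertions. Olfr1426 (chr19:12091798-12092097, minus strand) and Olfr287 (chr15:98221007-98221306, minus strand) belong to the 8 members of highest density described below, and their windows hold insertions. Olfr630 (chr7:103757301-103757600, minus strand) and Olfr1392 (chr11:49293047-49293346, plus strand) are shown for the number of insertions in the window. Olfr1537 (chr9:39238382-39238681, minus strand) and Olfr944 (chr9:39217109-39217408, plus strand) hold the most TTAA without an insertion and were chosen after their values were seen.
Olfr1426: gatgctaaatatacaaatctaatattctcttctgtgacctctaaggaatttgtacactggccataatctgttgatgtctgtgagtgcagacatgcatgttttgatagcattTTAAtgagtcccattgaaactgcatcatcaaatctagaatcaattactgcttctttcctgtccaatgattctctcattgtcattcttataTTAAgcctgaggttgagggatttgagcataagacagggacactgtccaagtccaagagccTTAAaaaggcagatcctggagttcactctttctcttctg
Olfr287: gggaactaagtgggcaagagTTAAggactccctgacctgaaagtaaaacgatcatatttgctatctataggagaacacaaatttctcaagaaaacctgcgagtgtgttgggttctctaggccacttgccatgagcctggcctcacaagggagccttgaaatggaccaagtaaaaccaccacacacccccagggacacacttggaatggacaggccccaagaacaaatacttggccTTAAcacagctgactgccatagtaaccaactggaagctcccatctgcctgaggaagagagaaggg
Olfr630: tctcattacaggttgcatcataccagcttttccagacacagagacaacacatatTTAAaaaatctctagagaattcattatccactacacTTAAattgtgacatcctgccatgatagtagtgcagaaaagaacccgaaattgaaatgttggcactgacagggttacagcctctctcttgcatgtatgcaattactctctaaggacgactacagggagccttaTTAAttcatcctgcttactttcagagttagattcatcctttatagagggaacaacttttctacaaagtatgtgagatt
Olfr1392: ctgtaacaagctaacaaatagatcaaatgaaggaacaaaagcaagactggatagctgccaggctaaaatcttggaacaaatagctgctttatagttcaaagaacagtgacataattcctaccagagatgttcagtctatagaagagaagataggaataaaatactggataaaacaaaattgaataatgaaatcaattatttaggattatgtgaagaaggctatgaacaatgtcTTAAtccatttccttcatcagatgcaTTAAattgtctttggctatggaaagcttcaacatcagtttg
Olfr1537: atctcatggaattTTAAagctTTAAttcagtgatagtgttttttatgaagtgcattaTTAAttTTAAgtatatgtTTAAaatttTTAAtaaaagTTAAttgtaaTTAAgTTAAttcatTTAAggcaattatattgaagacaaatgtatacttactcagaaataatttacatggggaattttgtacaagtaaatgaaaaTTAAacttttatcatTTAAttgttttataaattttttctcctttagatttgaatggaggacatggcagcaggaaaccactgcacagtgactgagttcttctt
Olfr944: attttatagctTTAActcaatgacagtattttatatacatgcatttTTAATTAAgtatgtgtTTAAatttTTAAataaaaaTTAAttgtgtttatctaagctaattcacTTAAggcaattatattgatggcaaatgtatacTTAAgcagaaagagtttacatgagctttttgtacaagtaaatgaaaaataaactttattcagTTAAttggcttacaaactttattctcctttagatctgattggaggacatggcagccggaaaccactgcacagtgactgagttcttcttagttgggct

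The Olfr1426 window took 27 insertions over its 3 TTAA: 6 at window position 112, 6 at position 202 and 15 at position 262, counted from 1 at the 5′ end. None of these came from N2a. The Olfr630 window also took 27, but 21 of the 22 at position 223 and all 3 at position 91 were N2a insertions, and 2 at position 55 came from GFAPCre and GFAPCreNeg animals. Olfr1392 took 5 at position 234 and 4 at position 260, all in animals, and Olfr287 took 4. The 12 TTAA of the Olfr1537 window and the 9 of the Olfr944 window took no insertion in any of the 47 tables.

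Per TTAA, receptor windows were hit far less than windows of other genes. Per 1000 TTAA and 1000000 insertions of a table, receptor windows took 10.7 insertions in C57bl6J, 7.17 ± 1.04 (SD, n = 6) in Syn1Cre, 7.25 ± 2.37 (SD, n = 6) in GFAPCre and 18.2 in N2a. Windows of other genes took 407, 551, 550 and 743, which is 38.1, 76.7, 75.9 and 40.9 times as many. In the SP1 groups the receptor windows took 4.85 at P28 and 1.28 at P10, the latter from 1 insertion, beside 2458 and 3027 in windows of other genes. Of the 2727 distinct TTAA in receptor windows, 10.7% took an insertion in some table, against 58.0% of 13471 in windows of other genes. So the windows at annotated receptor starts held more TTAA than those of other genes and fewer insertions. The 2 kinds of window may differ in how often they hold a promoter.

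In gene bodies the receptor density was low in every animal group except Frontflip_GFAPCreNeg, which is too shallow to place. TTAA were counted only in the windows above. Densities per Mb, here and below, are therefore not corrected for the TTAA content of bodies, gaps or other genes. C57bl6J animals had 0.0748 and 0.0869 of the genome mean, from 262 and 430 insertions. Syn1Cre animals had a lowest value of 0.0638, a median of 0.0660 and a highest value of 0.0731, and GFAPCre animals 0.0453, 0.0524 and 0.0567. The group means were 12.4 times below the genome in C57bl6J, 14.99 times in Syn1Cre and 19.3 times in GFAPCre. These 3 groups did not overlap: both C57bl6J animals lay above all Syn1Cre animals, which lay above all GFAPCre animals.

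The groups labelled Neg lay lower still. Syn1CreNeg had 0.0317, 0.0479 and 0.0630 as its lowest, median and highest values, and GFAPCreNeg 0.0319, 0.0442 and 0.0504. Syn1CreNeg lay wholly under Syn1Cre, whose mean was 1.43 times as high, while GFAPCre (mean 0.0518 ± 0.00456, SD, n = 6) and GFAPCreNeg (0.0428 ± 0.00787, SD, n = 6) overlapped. The Syn1CreNeg range rests on 190 receptor insertions in 6 tables, beside 842 in Syn1Cre, so its spread includes more counting error.

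In the shallow or labelled groups the values were as follows. Frontflip_GFAPCre animals had 0.0387, 0.0467 and 0.0325. Frontflip_GFAPCreNeg animals had 0, 0 and 0.0779, which is a single insertion in 3 tables, and the values that a count of 0 allows there, from 3 counts, are 0.138 and 0.571. These 3 tables are too shallow to place among the others.

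The SP1 groups were low as well. Syn1Cre_SP1_P10 animals had 0.0406, 0.0295 and 0.0278, and Syn1Cre_SP1_P28 animals 0.0438, 0.00810, 0.0241 and 0.0412. All 7 lay under the lowest Syn1Cre animal, and the Syn1Cre mean was 2.05 times the P10 mean and 2.28 times the P28 mean. The P28 animals spread widely, with a mean of 0.0293 ± 0.0166 (SD, n = 4) from 88 insertions.

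Rbp4Cre_TRAP animals had 0.0617, 0.0961, 0.0767 and 0.0901 from 31 insertions. BrokenHeart animals had 0.0755, 0.0896 and 0.0518 from 35 insertions. The DNA readout overlapped the RNA readout of C57bl6J, whose mean was 1.12 times the BrokenHeart mean. The difference between the readouts was within the spread of these 3 and 2 animals.

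N2a had 272 receptor insertions and a density of 0.148 of the genome mean (95% exact Poisson interval of counting error, 0.131 to 0.167), 6.75 times below the genome. It lay above every animal, the highest of which had 0.0961. N2a is a single table without replicates, so its difference from the brain has no replicate check. PCR reads without molecular identifiers are not independent molecules, and this interval covers counting error only.

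**Figure D1:**
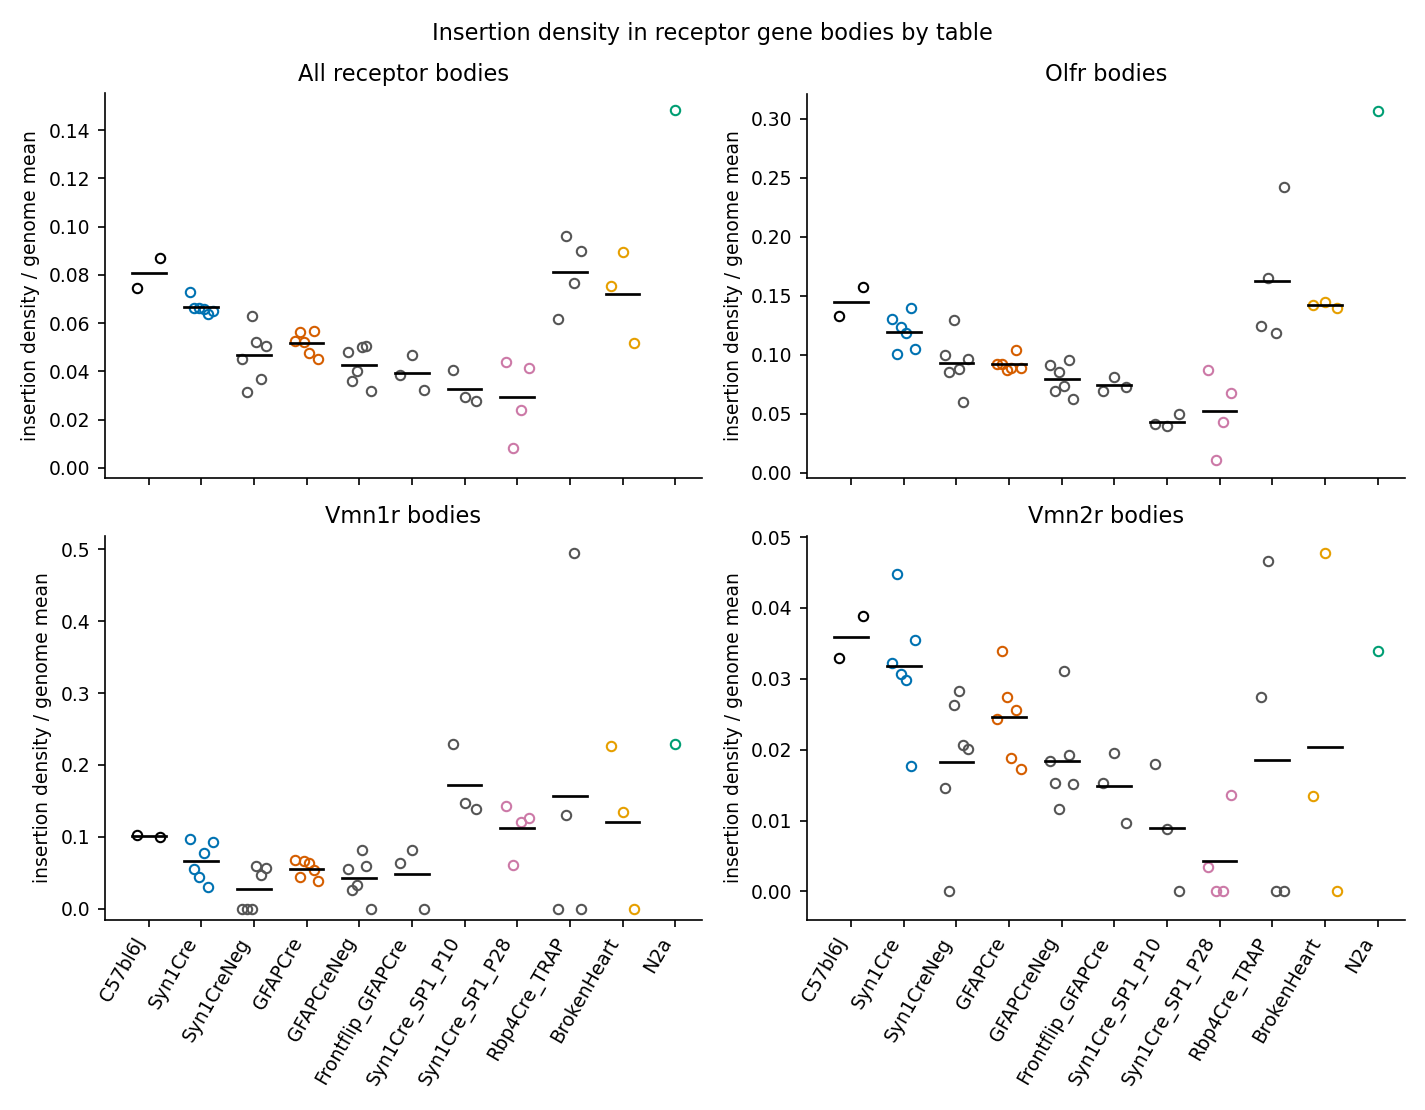
Insertion density in receptor bodies divided by the genome mean (vertical axis, linear) for each table (circles) and the mean of each group (bars), for all receptors, Olfr, Vmn1r and Vmn2r. Frontflip_GFAPCreNeg, with 1 receptor insertion in 3 tables, is left out. N2a stands highest for all receptors (0.148) and for Olfr (0.307) but not for Vmn2r (0.0339).

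The separations between groups were small against the low overall level, and some rested on few genes. With lines of at least 2 reads, Syn1Cre overlapped both GFAPCre and Syn1CreNeg. Syn1Cre and GFAPCre also overlapped with 10 kb flanks and without the 8 members of most insertions, where the Syn1Cre mean was 1.12 times the GFAPCre mean instead of 1.29. Syn1Cre and Syn1CreNeg overlapped without members that overlap another gene, and Syn1Cre_SP1_P28 and Syn1Cre with 10 kb flanks. Other separations appeared only without the 8 members. GFAPCre (0.0250 to 0.0346) then lay above GFAPCreNeg (0.0133 to 0.0239), and BrokenHeart (highest 0.0473) below C57bl6J (lowest 0.0504). Within animals 1 to 3 of each group, Syn1Cre spanned 0.0661 to 0.0731 and GFAPCre 0.0522 to 0.0564. Within animals 4 to 6 they spanned 0.0638 to 0.0660 and 0.0453 to 0.0567. Titles of Syn1Cre animals 4 to 6 are laid out differently from those of animals 1 to 3, while GFAPCre titles keep the same layout. The parts are therefore not matched between the 2 groups by their labels. Depth moved with the groups, since C57bl6J was deepest and the Neg and SP1 groups shallower, and its part in these differences was not tested.

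Within C57bl6J, Syn1Cre and GFAPCre, Olfr and Vmn2r bodies differed by more than these 3 groups did. Olfr bodies had 0.133 and 0.157 of the genome mean in C57bl6J, 0.120 ± 0.0150 (SD, n = 6) in Syn1Cre, 0.0924 ± 0.00630 (SD, n = 6) in GFAPCre and 0.142, 0.145 and 0.140 in BrokenHeart. Vmn2r bodies, mostly much longer, had 0.0359 in C57bl6J, 0.0318 ± 0.00880 (SD, n = 6) in Syn1Cre and 0.0246 ± 0.00604 (SD, n = 6) in GFAPCre. The Vmn2r value was below the Olfr value in 45 of the 47 tables. The 953 Olfr bodies under 2 kb had 0.0328 in Syn1Cre, near the Vmn2r value, so the gap lay in the longer Olfr bodies there.

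Vmn1r bodies cover only 0.380 Mb, so their values rest on few insertions. C57bl6J animals had 0.103 and 0.1001, and the means of Syn1Cre and GFAPCre were 0.0662 ± 0.0272 and 0.0559 ± 0.0124 (SD over 6 animals each). The Syn1Cre_SP1_P10 animals had 0.229, 0.148 and 0.139, all above the C57bl6J animals, but from 7 insertions in all, 6 of them in Vmn1r4, whose body overlaps the gene Nt5c3. Without the members that overlap another gene the P10 mean over all receptors was 0.0230 instead of 0.0326. In the same animals Olfr had a mean of 0.0435 and Vmn2r of 0.00893, from 10 and 3 insertions.

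N2a was high in Olfr and Vmn1r and not in Vmn2r. Its Olfr density was 0.307 (95% exact Poisson interval 0.267 to 0.351, 209 insertions), where the C57bl6J mean was 0.145. Its Vmn1r density was 0.229 (0.152 to 0.331, 28 insertions). Its Vmn2r density was 0.0339 (0.0236 to 0.0472, 35 insertions), an interval that holds the C57bl6J mean of 0.0359.

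Most receptor genes took no insertion at all. In all 47 tables together, with 21419304 insertions on chromosomes 1 to 19, 1071 members (73.5%) had none: 833 Olfr (75.5%), 186 Vmn1r (80.5%) and 52 Vmn2r (42.3%). A body of the median length, 951 bases, would hold 8.28 insertions at the genome mean. Of the 387 members with an insertion, 60 had at least 10, and the 8 with most held 42.4% of the 3091 insertions, positions shared by overlapping bodies counted once. In N2a 82 members were hit.

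The receptors were emptier than other genes of the same length. Of the 1135 members from 800 to under 1200 bases, 83.5% had no insertion and the density was 0.0430, averaged over the Syn1Cre, GFAPCre and C57bl6J means. Of 318 other genes of that length 64.8% had none and the density was 1.27. From 5 to 20 kb, 33.6% of 122 members had none, against 5.36% of other genes, and at 20 kb or more 33.7% of 86 members, against 1.37%.

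The 4 longest members without any insertion were all Vmn2r genes, which encode receptors with a large extracellular domain. They were Vmn2r91 (chr17:18085057-18136643), Vmn2r57 (chr7:41399732-41448641), Vmn2r94 (chr17:18243570-18285259) and Vmn2r21 (chr6:123492508-123533406). At the genome mean they would hold 449, 426, 363 and 356 insertions. A count of 0 allows at most 0.00668, 0.00705, 0.00827 and 0.00843 of the genome mean, from 3 counts over all tables. How the authors treated reads that match several copies is not given in the sources used here, and its part in empty bodies was not tested.

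Within the Olfr family, the annotated length moved with the density. The 953 Olfr bodies under 2 kb, mostly coding sequence (868 of all 1104 Olfr lengths are multiples of 3), had 0.0328 ± 0.0101 in Syn1Cre, 0.0295 in GFAPCre and 0.0868 in N2a. The 151 bodies of 2 kb or more, which include introns and upstream exons, had 0.187 ± 0.0249, 0.141 and 0.478. Without the 3 highest members the long bodies still had 0.111 ± 0.0118 in Syn1Cre and 0.0881 in GFAPCre. In BrokenHeart the means were 0.0246 under 2 kb and 0.234 above.

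The low density reached beyond the bodies into the clusters. In Syn1Cre the density was 0.0667 in the bodies, 0.162 in the first kb outside, 0.116 at 5 to 10 kb, 0.208 at 20 to 50 kb, 0.507 at 50 to 100 kb and 0.672 at 100 to 200 kb. In C57bl6J it was 0.0808, 0.237, 0.143, 0.222, 0.494 and 0.649 over the same distances. N2a went from 0.148 in the bodies to 0.959 at 50 to 100 kb and 1.02 at 100 to 200 kb. At 100 to 200 kb C57bl6J and Syn1Cre were still under the genome mean, and N2a was at it.

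The profile of other short genes had another shape. Around other genes under 2 kb the Syn1Cre density was 1.82 in the body, 2.01 in the first kb and between 0.840 and 0.979 from 1 to 200 kb. Around Vmn2r bodies Syn1Cre had 0.0318 in the body, 0.0124 at 5 to 10 kb and only 0.225 at 100 to 200 kb. The Syn1Cre_SP1_P28 profile was lower than Syn1Cre next to receptor bodies (0.0703 in the first kb) and higher far away (0.720 at 50 to 100 kb and 0.958 at 100 to 200 kb).

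**Figure D2:**
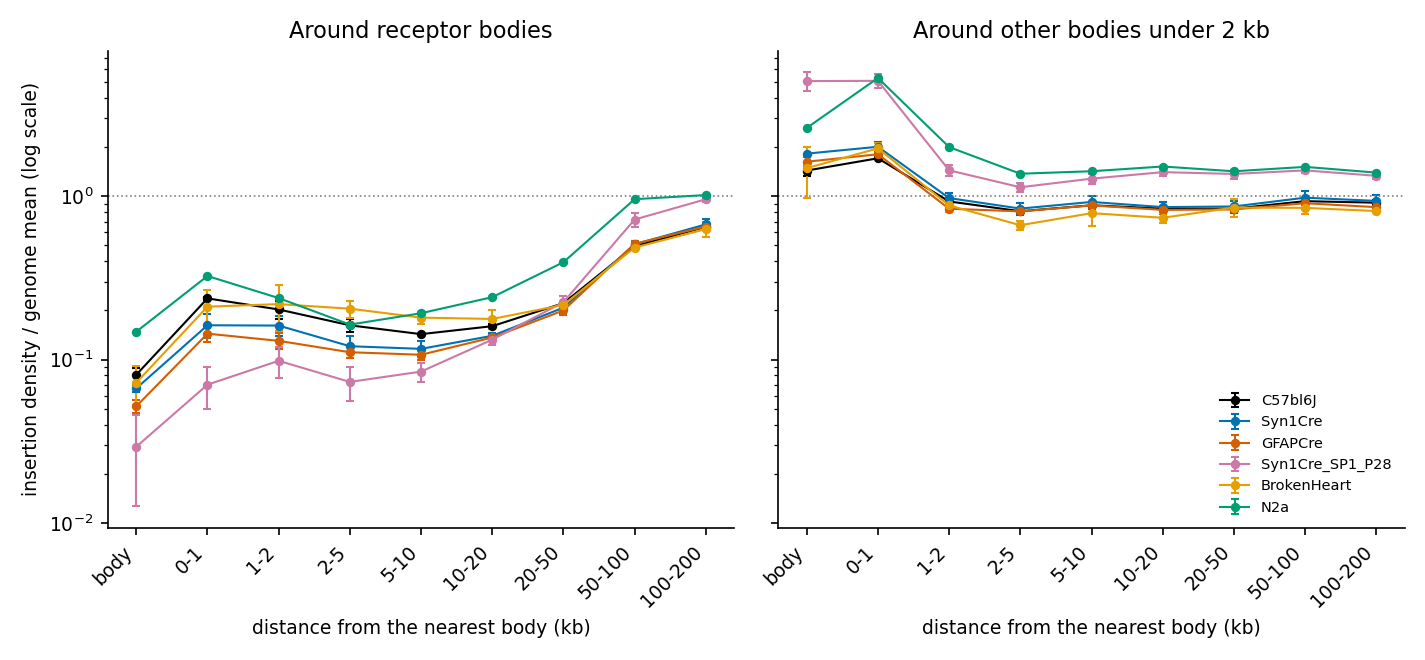
Insertion density divided by the genome mean (vertical axis, log scale) by distance from the nearest body (horizontal axis, kb), around receptor bodies (left) and around other bodies under 2 kb (right). Points are group means, bars are SD over animals and N2a is 1 table; the dotted line is the genome mean. Around receptors every curve lies under the line up to 50 kb, and around other short genes the first kb lies above it (2.01 in Syn1Cre).

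Per Mb, the bodies were low even for their clusters, though the TTAA of bodies and gaps were not counted. Members of a chromosome less than 1 Mb apart were joined into 68 clusters, 39 of which have at least 5 members and hold 1411 of the 1458. Over the whole spans of these 39 the density was 0.227 in C57bl6J, 0.213 in Syn1Cre, 0.207 in GFAPCre and 0.367 in N2a. In cluster DNA outside protein-coding genes, where receptor pseudogenes are left in, it was 0.196, 0.176, 0.170 and 0.326. Receptor bodies lay below this gap DNA in 47 of 47 tables. Other protein-coding genes inside the clusters had 0.647, 0.691, 0.687 and 0.937, also above the receptor bodies in 47 of 47. The 3 Frontflip_GFAPCreNeg tables, with a single receptor insertion among them, add little to these counts.

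Receptor pseudogenes, 584 annotated copies that no longer encode a receptor, had 0.0477 in C57bl6J, 0.0291 in Syn1Cre, 0.0221 in GFAPCre and 0.0488 in N2a. These values lie near those of Vmn2r bodies. Members that overlap another gene (8) had 0.178 in Syn1Cre and 0.927 in N2a. Among the rest the N2a density fell with distance from the nearest other gene, 0.351 within 10 kb (44 members), 0.240 at 10 to 50 kb (282), 0.169 at 50 to 200 kb (574) and 0.0404 beyond 200 kb (550). In Syn1Cre the same classes had 0.117, 0.0589, 0.0671 and 0.0599. A few members held many of the N2a insertions. They were Vmn1r4 (20) among the overlapping, Olfr1393 (25) within 10 kb, and Olfr558 (38) and Olfr69 (10) at 10 to 50 kb. At 50 to 200 kb they were Olfr78 (46) and Olfr630 (24). The fall in N2a is therefore not read as a trend shared by the members of each class.

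Beside other clustered families, the receptors were at the low end but not alone there. Beta defensins (Defb), antimicrobial peptides of epithelia, had 0.129 in C57bl6J, 0.0995 in Syn1Cre and 0.319 in N2a. Kallikreins (Klk), secreted proteases, had 0.126, 0.0956 and 0.0319. Bitter taste receptors (Tas2r) had 0.185, 0.142 and 0.188, and trace amine receptors (Taar), a further family of olfactory receptors, 0.203, 0.0780 and 0 (95% upper bound 0.646).

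Keratins were higher, with 0.451 in C57bl6J and 0.472 in Syn1Cre. Hox genes, which set body position and lie under Polycomb control in the forebrain, had 0.0557, 0.0535 and 0.0396 in C57bl6J, Syn1Cre and GFAPCre, values like those of the receptors. In N2a the Hox genes had 2.01 from 180 insertions, where the receptors had 0.148. Clustered protocadherins, adhesion proteins of neurons, had 1.11 in C57bl6J and 2.32 in N2a, and Zfp genes 1.09 and 0.959. So the Hox genes and the receptors lay close together in these cortex groups and far apart in the N2a table.

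**Figure D3:**
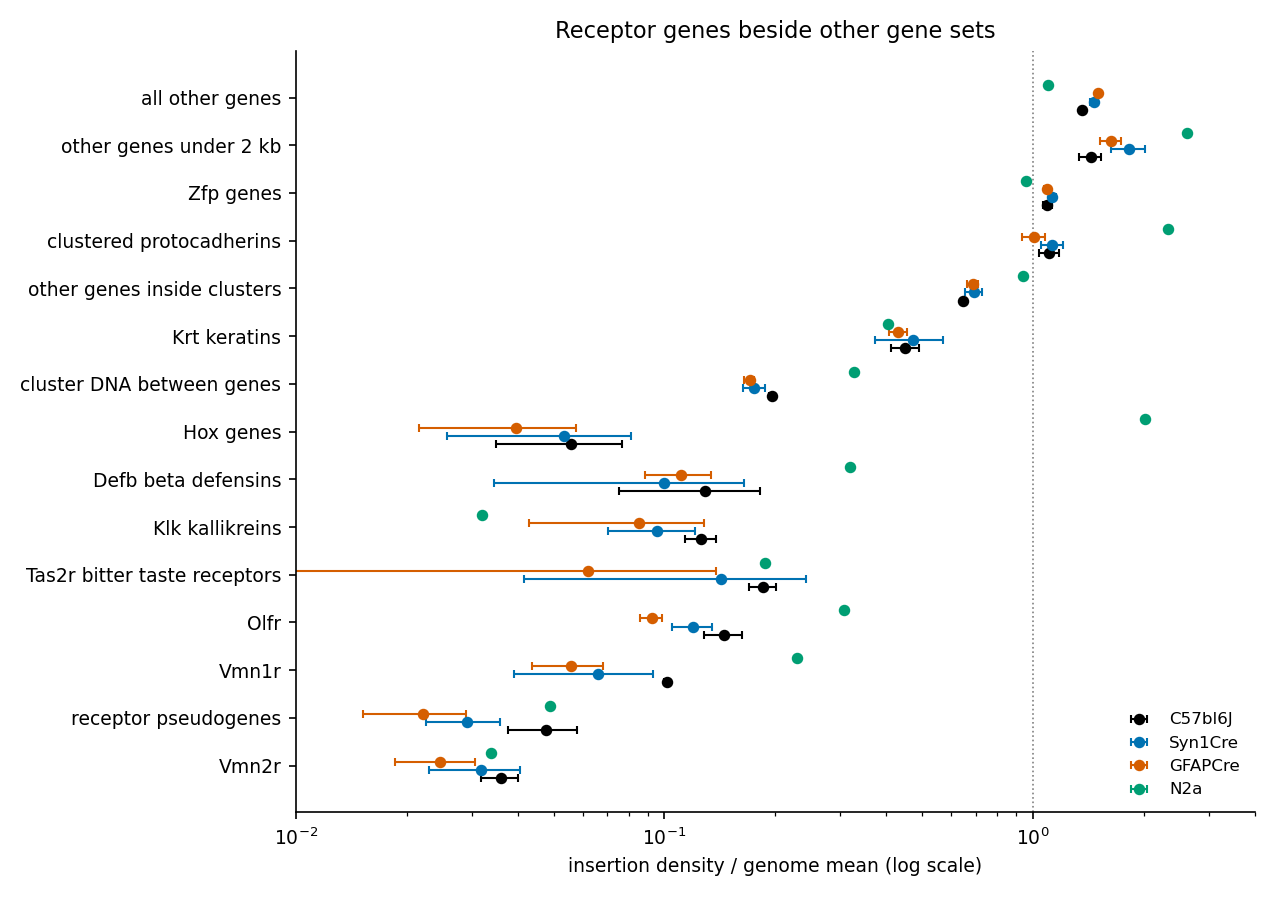
Insertion density divided by the genome mean (horizontal axis, log scale) for the receptor families and other gene sets, as means with SD over animals in C57bl6J (2), Syn1Cre (6) and GFAPCre (6) and as 1 table in N2a; a lower error bar that would pass 0 runs to the edge, and the dotted line is the genome mean. Vmn2r bodies (0.0359 in C57bl6J) and receptor pseudogenes lie lowest in the deep brain groups, and Hox genes move from 0.0557 in C57bl6J to 2.01 in N2a.

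The clusters were uneven. In Syn1Cre all 39 clusters of at least 5 members lay under the genome mean in their bodies, with a median of 0.0470 and a range from 0 to 0.517, and likewise all 39 in GFAPCre and C57bl6J. Whole spans were under the genome mean in 36 of 39, with a median of 0.0934 and a highest value of 1.08. Bodies were lower than the gaps in 32 of 39 clusters in Syn1Cre, 28 in GFAPCre, 30 in C57bl6J and 27 in N2a. The order of the 39 clusters was similar among brain groups (Spearman rho 0.831 for C57bl6J with Syn1Cre and 0.739 for Syn1Cre with GFAPCre) and less so between C57bl6J and N2a (0.518). These are descriptions across clusters that share depth and base composition.

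The cluster with most members, cluster 5 (chr2:85330967-90401674, 222 Olfr genes from Olfr987 to Olfr1274), held 220 insertions, and 157 of its members held none. Its bodies had 0.108 and 0.140 in C57bl6J, 0.0772 ± 0.0251 in Syn1Cre, 0.0594 ± 0.0279 in GFAPCre (SD over 6 animals each) and 0.0515 in N2a. The N2a value was under the means of these 3 groups, though above the lowest Syn1Cre (0.0331) and GFAPCre (0.0348) animals.

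Cluster 41 (chr9:37711348-40188094, 95 Olfr genes) was the densest in C57bl6J, Syn1Cre and GFAPCre of the 5 clusters with most members, with 554 insertions. C57bl6J animals had 0.486 and 0.548, Syn1Cre 0.419 to 0.658 and GFAPCre 0.205 to 0.405. Syn1Cre and GFAPCre did not overlap. BrokenHeart had 0.745 ± 0.367 (SD, n = 3), N2a 0.227 and Syn1Cre_SP1_P28 0.126 ± 0.146 (SD, n = 4). Of the 554 insertions 442 lie in Olfr145, described below.

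At the other end, cluster 29 (chr7:20101158-24055691, 86 Vmn1r genes from Vmn1r91 to Vmn1r183) held no insertion in its bodies in any table. At the genome mean its bodies, 0.0848 Mb in all, would hold 738 insertions, and the count of 0 allows at most 0.00406 of the genome mean. Its whole span of 3.96 Mb had 0.000654 in Syn1Cre, 0.000238 in GFAPCre and 0.00944 in N2a, genes and gaps alike. Whether reads from its near-identical copies could be placed was not tested.

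Cluster 27 (chr7:5146490-13220289) mixes 8 Olfr, 35 Vmn1r and 29 Vmn2r genes. It held 48 insertions, and 63 of its 72 members held none. The bodies had 0.00878 in C57bl6J, 0.00795 in Syn1Cre and 0.0211 in N2a, but its span had 0.166 in Syn1Cre and 0.289 in N2a, so here the bodies were much emptier than their surroundings.

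Cluster 34 (chr7:102476773-105369317, 126 Olfr genes from Olfr543 to Olfr692, around the beta-globin genes) was where N2a differed most. Its bodies had 0.131 in C57bl6J, 0.0777 ± 0.0185 in Syn1Cre and 0.0519 ± 0.0173 in GFAPCre (SD over 6 animals each), and 1.69 in N2a. In N2a it held 140 of the 272 receptor insertions (51.5%), against 7.37% in C57bl6J. Over the whole span N2a had 686 insertions, of which 478 fell in the first 500 kb and 118 in a stretch of 100 kb from position 103676773.

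Within this cluster the N2a insertions were concentrated in a few genes, named here after their values were seen. Olfr78 (chr7:102740721-102759471), which is also expressed outside the nose, in carotid body and kidney, had 46 N2a insertions, a density of 7.63 of the genome mean, beside 0.241 in C57bl6J and 0.139 in Syn1Cre. Olfr558 (chr7:102702323-102712054) had 38 in N2a (12.1) and 4 in all animals together. Olfr630 (chr7:103754150-103757350), 55.2 kb from Hbb-bt, a beta-globin gene, had 24 (23.3), and its start is the window printed above. Olfr69 had 10 (7.20) and Olfr566 had 5 (6.36).

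Cluster 44 (chr11:49112777-49564858, 19 Olfr genes) and cluster 21 (chr6:56923914-58472878, 28 Vmn1r genes) followed, with 25 and 23 N2a insertions and densities of 1.68 and 0.757. In cluster 44 all 25 lay in Olfr1393, 846 bases from Mgat1, a glycosylation enzyme gene. In cluster 21, 20 lay in Vmn1r4, which overlaps Nt5c3. Clusters 34, 44 and 21 together held 69.1% of the N2a receptor insertions. Without them, a choice made on the N2a counts, N2a had 0.0492, between GFAPCre (0.0479 ± 0.00471) and Syn1Cre (0.0618 ± 0.00321). Of the 39 clusters, 17 were higher in N2a than in C57bl6J.

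**Figure D4:**
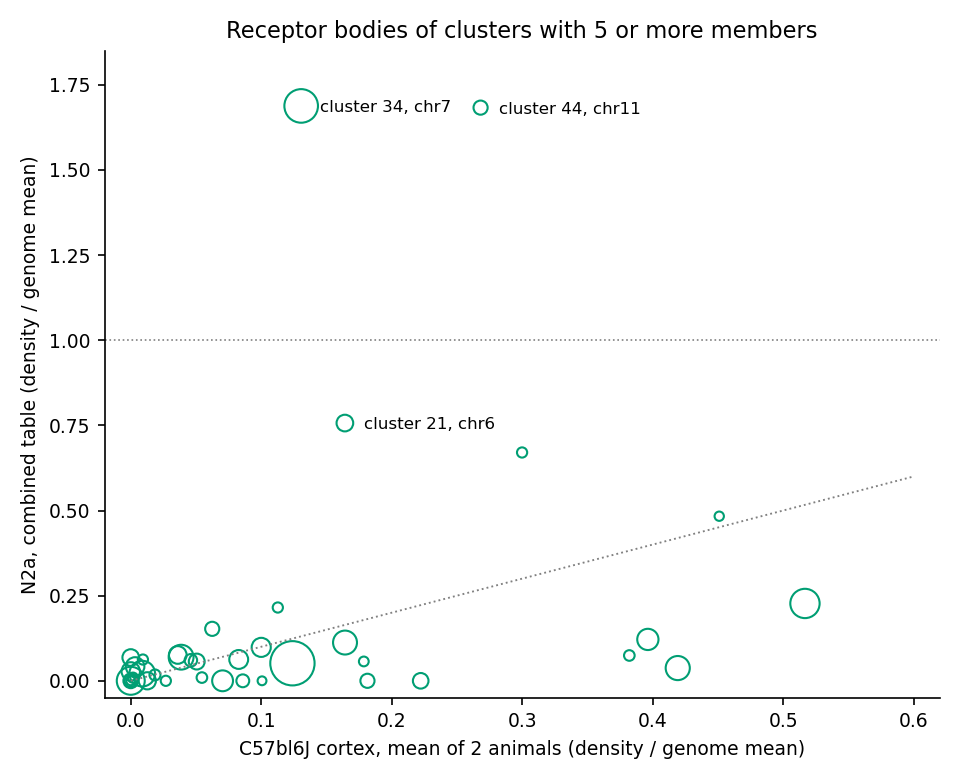
Insertion density of receptor bodies divided by the genome mean in N2a (vertical axis) and in C57bl6J (horizontal axis, mean of 2 animals) for the 39 clusters of at least 5 members; circle area grows with the number of members, the diagonal marks equal values and the horizontal line the genome mean. Clusters 34 (1.69) and 44 (1.68) lie above the genome mean in N2a, and the other 37 lie below it.

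The highest single members were few and were found in many animals. Among bodies of at least 2 kb, 3 exceeded the genome mean over the C57bl6J, Syn1Cre and GFAPCre group means. The members were ranked on these groups, so their values are descriptions. Olfr145 (gene ID 258310, chr9:37890567-37898338) had 7.31 times the genome mean, from 442 insertions, 441 of them in 38 animals and 1 in N2a. It had 7.42 and 7.97 in C57bl6J, from 5.57 to 11.7 with a median of 8.21 in Syn1Cre, and from 3.78 to 7.14 with a median of 5.94 in GFAPCre. BrokenHeart, not used for the ranking, had 11.1, 16.5 and 7.60 from 2, 5 and 1 insertions, and N2a had 0.400. The insertions fell on 32 distinct positions with 77 (17.4%) at the most used. The nearest other protein-coding gene, Panx3, is 221 kb away.

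Olfr1426 (gene ID 258805, chr19:12087610-12091847) had 3.06, from 103 insertions at 14 positions. C57bl6J had 3.27 and 3.46, Syn1Cre from 1.39 to 5.32, GFAPCre from 0 to 4.36 and N2a 0. Olfr1428 (chr19:12108600-12115828), its neighbour, had 1.72 from 82 insertions, with 1.35 and 2.71 in C57bl6J and 0 in N2a. They lie 93.5 and 114 kb from Osbp, and Syn1Cre and GFAPCre overlapped in both.

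The other 5 of the 8 lay between 0.535 and 0.933. Olfr70 (0.933, 41 insertions) is 2332 bases from Tmem8b, and Olfr287 (0.805, 144 insertions) is 32.2 kb from Ccdc184. Olfr676 (0.639) and Olfr550 (0.538) belong to cluster 34, and Olfr1130 (0.535) rests on 10 insertions. Over all lengths 9 members, 7 Olfr and 2 Vmn1r genes, were at or above the genome mean.

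**Figure D5:**
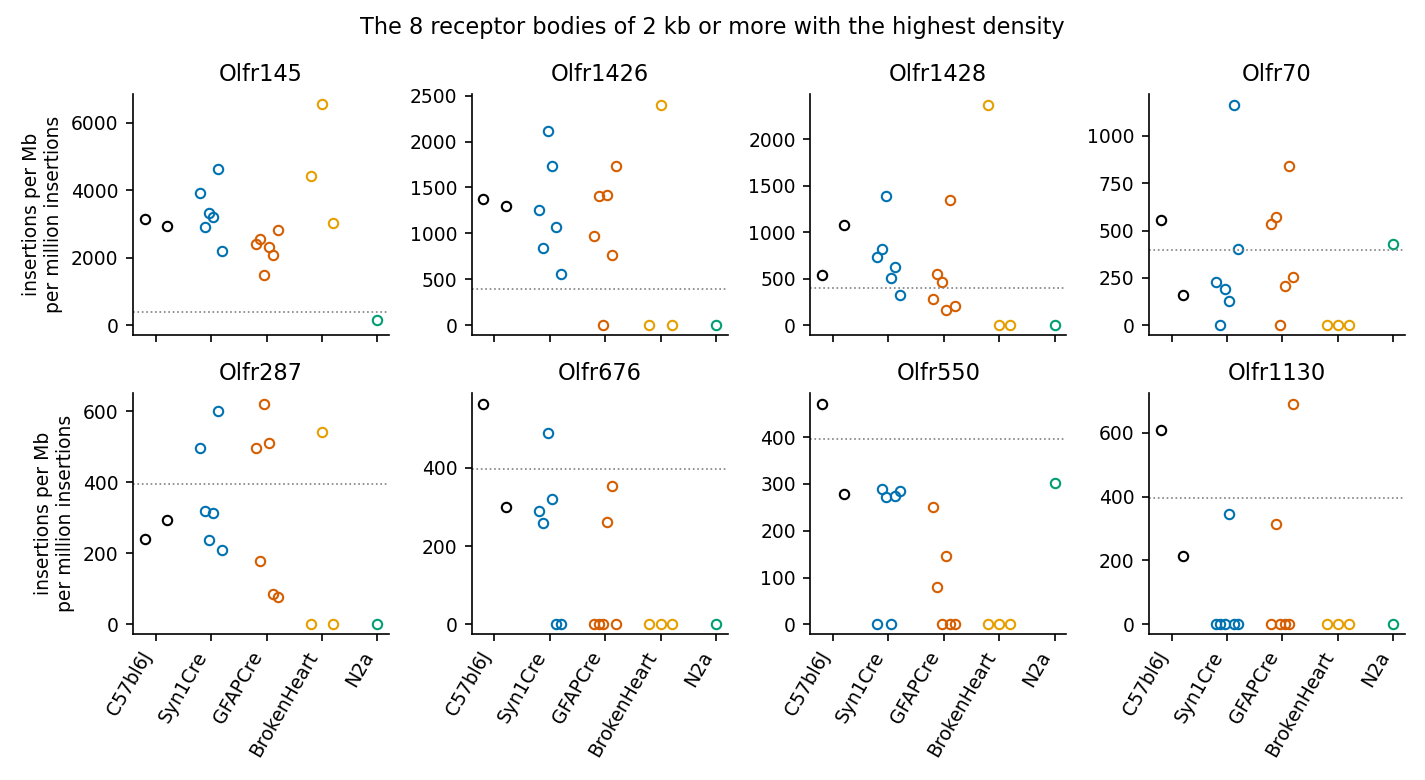
Insertions per Mb per 1000000 insertions of each table (vertical axis, own linear scale per panel) in the 8 receptor bodies of at least 2 kb with the highest density, for C57bl6J (2), Syn1Cre (6), GFAPCre (6), BrokenHeart (3) and N2a (1); each circle is a table and the dotted line is the genome mean, near 397. Olfr145 lies above the line in all 17 animals shown and below it in N2a.

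Differences between groups were tested on insertions per cluster with edgeR's quasi-likelihood test over 19275 features, the other genes included, with Benjamini-Hochberg adjustment at 0.05. Few clusters passed the filter on low counts, and a cluster can pass it through the group where it is high, so the counts below describe those clusters only.

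Between Syn1Cre and GFAPCre, 2 of 68 clusters could be tested and 1 was called, where 3.32% of all 5939 tested features were called. The called cluster was cluster 7 (chr3:64078172-64719602, 7 genes from Vmn2r1 to Vmn2r7), higher in Syn1Cre (2.17% of all features were) by 1.02 on the log2 scale (adjusted p = 0.0138, SE 0.23). Relative to the genome its bodies had 0.0832 to 0.285 in Syn1Cre and 0.0553 to 0.123 in GFAPCre, ranges that overlap. With lines of at least 2 reads it was tested and not called. Its insertions lay mostly in Vmn2r1 (301 insertions over all tables at 162 positions), with 0.353 ± 0.113 in Syn1Cre and 0.171 ± 0.0506 in GFAPCre (SD over 6 animals each). Vmn2r2, whose body lies inside that of Vmn2r1 and shares its insertions, had 0.309 to 0.761 in Syn1Cre and 0.0743 to 0.152 in GFAPCre, with no overlap. Cluster 41 had a log2 difference of 0.61 (adjusted p = 0.0643, SE 0.18), which did not pass.

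Marker genes of cell types gave a check of the labels in the same comparison, as insertions and not as RNA. Of 6 neuron markers tested 3 were higher in Syn1Cre (Dlx1 by 2.68, Gad2 by 2.01 and Gad1 by 1.98 on the log2 scale), and none of 5 astrocyte markers differed in either direction at this threshold. Against Syn1CreNeg, where 38.7% of all tested features were called in either direction, 4 of 5 neuron markers were higher in Syn1Cre and all 5 astrocyte markers lower. Between GFAPCre and GFAPCreNeg, where 13.6% of all tested features were called, 2 of 5 astrocyte markers were lower in GFAPCre. The part of such cell makeup in the receptor values was not tested. Omp and Trpc2, which mark mature sensory neurons of the nose and vomeronasal organ, did not pass the filter in any comparison.

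Against the Neg groups, the 1 cluster that could be tested was not called. In Syn1Cre against Syn1CreNeg 38.7% of all tested features were called, and the 1 cluster tested, cluster 41, had a log2 difference of 0.43 (adjusted p = 0.177, SE 0.25). In GFAPCre against GFAPCreNeg 13.6% were called, and cluster 41 had 0.01 (adjusted p = 0.98). In neither comparison did the 1 cluster that passed the filter have an unadjusted p under 0.05, and DESeq2 did not call it. All other clusters were left untested by the filter.

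In the SP1 groups clusters 7 and 41 were lower than in Syn1Cre. At P28, where 45.1% of all features were called (21.3% lower and 23.8% higher), both tested clusters were called lower: cluster 7 with a log2 difference of -2.14 (adjusted p = 0.00161, SE 0.51, 6 insertions against 125) and cluster 41 with -1.54 (adjusted p = 0.00364, SE 0.40, 13 against 171). At P10, where 34% were called (17.7% lower and 16.3% higher), 4 clusters were tested and 3 called. Cluster 7 had no insertion against 125 and was at least 2.03-fold lower, taking 3 counts over the group as the floor (adjusted p = 0.00922), and cluster 41 had -3.17 (adjusted p = 0.00766, SE 0.89, 1 against 171). Most of cluster 41 is Olfr145, which held 137 of the 171 in Syn1Cre, 11 of the 13 at P28 and the 1 at P10. Cluster 55 had the highest Syn1Cre density (0.517) of the clusters with at least 5 members and did not pass the filter. Without the filter its log2 difference was 0.18 at P28 (12 insertions against 43) and -1.56 at P10 (1 against 43), and neither was called.

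The third call at P10 went the other way. Cluster 21, the Vmn1r genes next to Nt5c3, was higher by 1.77 (adjusted p = 0.0449, SE 0.67) from 7 insertions against 37. It was not called when any P10 animal was left out or when the filter was dropped. Cluster 5 had -0.74 (adjusted p = 0.604). The median of all features at P10 was -0.29, so these values stand against that shift. Both SP1 comparisons use the same Syn1Cre animals. No cluster could be tested between P28 and P10 (11.3% of features called) or between BrokenHeart and C57bl6J (40.5%).

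Without the filter on low counts, the unadjusted p was under 0.05 for 2 of 45 clusters in Syn1Cre against Syn1CreNeg, and none was called. In GFAPCre against GFAPCreNeg it was for 6 of 40, and 2 were called, where 4% of all features were: cluster 27 with 17 insertions against 0 and cluster 31, of 8 Vmn2r genes, with 0 against 5. At P28 5 clusters were called lower than in Syn1Cre, where 21.9% of all features were called in either direction. These were clusters 5, 7, 32, 41 and 68. Whole windows of 500 kb that hold the midpoints of at least 5 members, with their gaps and other genes, hold more insertions than the bodies and could be tested in greater number. Of such windows 5 of 69 were called between Syn1Cre and GFAPCre, where 8.81% of all windows were, 19 of 53 between Syn1Cre and Syn1CreNeg (43.8%) and 9 of 53 between GFAPCre and GFAPCreNeg (12.3%). Between BrokenHeart and C57bl6J 5 of 26 were called (28%), and between P28 and P10 none of 31 (6.96%), of which 6 had an unadjusted p under 0.05.

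In the SP1 groups most of the receptor windows that were called were higher than in Syn1Cre. At P28, 33 of 64 receptor windows were called (59.9% of all windows), 23 of them higher than in Syn1Cre and 10 lower. At P10, 25 of 72 were called (41.6%), 20 of them higher and 5 lower. Both shares lie under those of all windows, and the directions over all windows are not given. These counts therefore describe the called windows only. Over the whole spans of the 39 clusters the SP1 groups had 0.258 of the genome mean at P10 and 0.249 at P28, beside 0.213 in Syn1Cre, while their receptor bodies had 0.0326 and 0.0293 beside 0.0667. Other genes inside the clusters had 1.04 at P10 and 1.05 at P28, beside 0.691.

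Genes of the sensory pathway itself were not low like the receptors. The 15 olfactory signalling genes on these chromosomes, among them Gnal, Adcy3 and the calmodulins, had 0.719 of the genome mean in C57bl6J, 0.692 in Syn1Cre, 0.644 in GFAPCre and 0.427 in N2a. The vomeronasal signalling genes had 1.099, 2.03, 1.95 and 0.569, and 17 genes of receptor choice and transport, such as the regulators Lhx2, Ldb1 and the Ebf genes, 1.04, 0.910, 0.913 and 0.750. Many of these genes have roles elsewhere in the brain.

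The share of these genes called varied with the comparison and is set beside the share over all features. By edgeR none of the 20 tested in Syn1Cre against GFAPCre was called (3 with an unadjusted p under 0.05, and 3.32% of all features called). In Syn1Cre against Syn1CreNeg 7 of 18 were called, 38.9% beside 38.7% of all features. There 2 of 7 olfactory signalling genes were higher (Gnal by 0.58 and Pde1c, a calmodulin-dependent phosphodiesterase, by 0.89) and Gnao1 was lower by a log2 difference of -1.13. Of 10 receptor choice genes, Ebf2 was higher (1.52) and Emx2 (-2.34), Bptf (-0.81) and Cbx5 (-0.59) were lower. In GFAPCre against GFAPCreNeg, Gnao1 was lower (-0.84) and Lhx2 higher (0.47), which is 2 of 14, or 14.3% beside 13.6% of all features. Shares this close to the background are no result about these genes.

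In the SP1 groups 5 of 20 were called at P28 (25% beside 45.1%) and 7 of 24 at P10 (29.2% beside 34%). The largest rises among them were in Gnai2, with 3.06 at P28 and 3.07 at P10, and in Ldb1, a cofactor of Lhx2, with 2.83 and 2.62. At P28 Gnao1 (0.91) and Cbx5 (0.82) were also higher and Slc24a4, an exchanger that ends the odour response, lower (-0.80). At P10 Pde4a was higher (1.60), while Adcy3 had no insertion against 121 in Syn1Cre (at least 1.97-fold lower) and Calm2 none against 137 (at least 2.23-fold lower). Lhx2 (-0.93) and Reep1 (-1.01) were lower at P10 as well. Gnal (-1.27), Ebf1 (-0.83) and Lhx2 (-1.07) were lower in BrokenHeart than in C57bl6J, 3 of the 4 tested beside 40.5% of all features called.

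The insertions inside receptors differed from others in their reads and positions. In the 20 tables with at least 50 receptor insertions, the mean number of reads was lower in receptor bodies than in other gene bodies in 17, and the share of insertions with a single read was higher in 17. In C57bl6J 38.9% of receptor insertions had 1 read, against 36.4% in other genes, in Syn1Cre 31.9% against 27.5%, and in N2a 18.4% against 16.9%. Receptor insertions were also less often repeats of a position already used: the distinct share was higher in 20 of 20 tables, with 86.6% against 68.98% in C57bl6J and 87.9% ± 2.14 (SD, n = 6) against 75.6% in Syn1Cre. Counting each position once raised the relative receptor density to 0.102 in C57bl6J and 0.0778 in Syn1Cre. Sparse insertions leave fewer repeats of a position. The distinct share and this rise therefore cannot be told apart from the low density itself.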

How the data were processed

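Each deposited table lists insertions with chromosome, start, end, number of reads, strand and a barcode. The deposited read counts are whole-number counts per insertion, not normalized, and each line was taken as 1 insertion. The submitters' processing notes name mm10, Novoalign and Bowtie2 without role or version. The treatment of reads that match several places is not given in the sources used here. The build was checked against the RefSeq windows around gene starts: 100% of SRT insertions inside them and from 96.8% to 98.2% of BrokenHeart insertions lay on TTAA.

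Genes came from the GRCm38.p6 RefSeq table. Density was insertions in the union of bodies per Mb, divided by the same over chromosomes 1 to 19 (2461 Mb by the highest positions in the tables). Insertions of member bodies, summed per cluster, and of the other genes were fitted with edgeR 4.0.16 (R 4.3.3; TMM, filterByExpr, glmQLFit), using only the animals of both groups, with DESeq2 1.42.0 as an alternative. The replicate is the animal, and p-values measure the spread between these animals. Tables were read with Python 3.11.15, numpy 2.4.6, pandas 2.3.3 and scipy 1.17.1, and plotted with matplotlib 3.10.9. Tested on simulated counts with 200 changed features, the fit recovered 95% of 2-fold changes for Syn1Cre against GFAPCre over 5939 features, and 46% at P28 and 22% at P10 against Syn1Cre.

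The clusters named were the 5 with most members and up to 3 called each way per comparison. The single members named were the 8 of highest density and the 4 longest of lowest density among bodies of at least 2 kb, with fixed lists of other genes. The N2a clusters and members, the further clusters and the genes beyond these were named after their values were seen. The members and lists were chosen with earlier results of these data known. Alternatives were other counting of lines, flanks, filters, tools, windows of 500 kb, blocks and leaving out each animal.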

Additional observations from a re-analysis of the deposited data

Results flagged for a closer look

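Of 24 groups of 4 to 10 animals examined for a value far from the others, 2 had one, and chance flags about 1 in 20 groups. GFAPCre replicate 5 had an Olfr density of 0.1045 of the genome mean from 54 insertions, above the next animal at 0.0925. Syn1Cre replicate 1 had a density of 0.0731 over all receptors from 125 insertions, above the next at 0.0662.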

How the results depend on the processing

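Every setting left receptor bodies under the genome mean, with values from 0.0134 to 0.197. Of 98 alternative density values 70 moved by less than 1 SD over animals (in N2a, stayed within the counting interval), and 28 moved further. The 70 include every mean with 1 animal left out. Such a mean cannot move by 1 SD, so these values are no check of stability. With distinct positions the density was 0.102 in C57bl6J, 0.0778 in Syn1Cre, 0.0616 in GFAPCre and 0.169 in N2a, and with at least 2 reads 0.0615 in Syn1Cre. With flanks of 10 kb it was 0.154 in C57bl6J, 0.120 in Syn1Cre, 0.106 in GFAPCre, 0.0776 at P28, 0.177 in BrokenHeart and 0.197 in N2a. Without the 8 members of most insertions, an alternative chosen after seeing the data, as were the counts for single members, it was 0.0544 in C57bl6J, 0.0356 in Syn1Cre, 0.0317 in GFAPCre, 0.0422 in BrokenHeart and 0.126 in N2a. Leaving out each animal gave 0.0748 to 0.0869 in C57bl6J, 0.0654 to 0.0673 in Syn1Cre, 0.0508 to 0.0531 in GFAPCre, 0.0245 to 0.0364 at P28 and 0.0636 to 0.0826 in BrokenHeart. Of 16 values for single members 1 moved: Olfr145 had 5.06 over distinct positions.

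Of 99 alternative counts of called clusters 87 stayed within 1.5 times. Syn1Cre against GFAPCre had 0 calls with at least 2 reads. Without the filter 2 were called in GFAPCre against GFAPCreNeg and 5 at P28, and with at least 2 reads 1 at P28. Windows of 500 kb, which hold more insertions, gave 5, 19, 9, 33, 25 and 5 calls for Syn1Cre against GFAPCre, Syn1Cre against Syn1CreNeg, GFAPCre against GFAPCreNeg, P28, P10 and BrokenHeart against C57bl6J. Leaving out each animal gave 0 to 1 calls for Syn1Cre against Syn1CreNeg, the 1 without Syn1Cre replicate 5, and 2 to 3 at P10. The causes were not tested. Animals with the same number did not deviate together (correlations from -0.26 to 0.18). With the number as a replicate block, 1 cluster was called for Syn1Cre against GFAPCre, 2 at P28 and 1 at P10. For 19 alternatives no cluster passed the filter, 12 of them of P28 against P10, where without the filter 20 clusters were tested and 0 called (0 with an unadjusted p under 0.05). Depth limits single receptors: most bodies are too short for a value of their own.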

Other observations

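In BrokenHeart, the readout from DNA, Hox genes had 1.102 of the genome mean (0.929 to 1.27 over 3 animals, 24 insertions), where C57bl6J read from RNA had 0.0557, while receptor bodies had 0.0723 and 0.0808. Keratins had 1.05 in BrokenHeart and 0.451 in C57bl6J.

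Beta defensins had 0.605 and kallikreins 0.540 of the genome mean in Syn1Cre_SP1_P10, where receptor bodies had 0.0326. Other genes under 2 kb had 5.802 at P10 and 5.06 at P28, against 1.82 in Syn1Cre. Of 35 clustered protocadherins tested by edgeR, 21 were higher at P10, where 16.3% of all features were higher, and 20 at P28, where 23.8% were, than in Syn1Cre, and none lower. The 57 bodies of this family together cover 0.514 Mb, and an insertion where bodies overlap counts in each of them. These counts are therefore not counts of independent genes.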
